A study of Mus musculus with 6 samples.

Results

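The mouse heart builds its respiratory chain partly from proteins that exist in 2 versions, a muscle isoform and a common isoform made by a separate gene. The 10 genes described here were Cox6a1, Cox6a2, Cox7a1, Cox7a2, Cox8a, Cox8b, Cox4i1, Cox4i2, Slc25a4 and Slc25a5, chosen by symbol. The choice was made with earlier results of these data known. All 10 were found among the 27998 genes of the deposited tables, of which 18117 had at least 1 UMI in the cells analysed. They form 4 pairs of muscle to common isoform, Cox6a2 to Cox6a1, Cox7a1 to Cox7a2, Cox8b to Cox8a and Slc25a4 to Slc25a5, and a separate pair, Cox4i2 to Cox4i1, in which neither gene is a muscle form. The level of each gene and the ratio within each pair were followed in single left ventricular cardiomyocytes (CMs) of C57BL/6J mice before and after birth.

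The data were droplet-based single-cell RNA-seq of 6 libraries, 1 each for diploid (2n) and tetraploid (4n) CMs at embryonic day 16.5 (E16.5) and postnatal days 1 and 5 (P1, P5). The E16.5-4n library is titled E16.5 but its age label gives day 16.6, and it is treated here as E16.5. No library carried a genetic change or a treatment. Cells were fixed in methanol, stained for the sarcomeric myosin MYH1 and for DNA and sorted by DNA content, so a 4n cell may have 2 nuclei, or 1 nucleus with replicated DNA. The paper reports that cell clumps were scarce after sorting, and doublets were not called here. Cells of 3 sorts were pooled before each library, which left 1 library per condition. No test between conditions was made, since none has a replicate, and a model of age plus ploidy over the 6 libraries, which would take their interaction as error, was not fitted. The intervals given below are exact 95% intervals that cover counting error alone, not the spread between litters, sorts or libraries.

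Complex IV, cytochrome c oxidase, is the last enzyme of the respiratory chain: it passes electrons to oxygen and pumps protons across the inner mitochondrial membrane. Its catalytic core is encoded by mitochondrial DNA, and the nuclear subunits around the core include COX4, COX6A, COX7A and COX8, each with tissue-dependent isoforms. COX6A2, COX7A1 and COX8B are the forms of heart and skeletal muscle, whereas COX6A1, COX7A2 and COX8A are made in most tissues. Slc25a4 and Slc25a5 encode the adenine nucleotide translocators ANT1 and ANT2, which exchange ADP for ATP across the inner membrane, ANT1 being the main form of heart and skeletal muscle and ANT2 a form of growing cells. The replacement of common by muscle isoforms around birth is a textbook part of heart and muscle maturation.

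The 2 genes of each pair lie on different chromosomes. On GRCm38, Cox8b (ENSMUSG00000025488) spans chr7:140898945-140900446 on the minus strand and Cox8a (ENSMUSG00000035885) chr19:7215153-7217616 on the minus strand. Cox7a1 (ENSMUSG00000074218) spans chr7:30184144-30186078 on the plus strand and Cox7a2 (ENSMUSG00000032330) chr9:79755361-79759878 on the minus strand. Cox6a2 (ENSMUSG00000030785) lies at chr7:128205435-128206387 and Cox6a1 (ENSMUSG00000041697) at chr5:115345642-115348981, both on the minus strand. Slc25a4 (ENSMUSG00000031633) lies at chr8:46206797-46211284 on the minus strand and Slc25a5 (ENSMUSG00000016319) at chrX:36795651-36798807 on the plus strand. Cox4i1 (ENSMUSG00000031818) spans chr8:120668222-120674207 and Cox4i2 (ENSMUSG00000009876) chr2:152754173-152765037, both on the plus strand.

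RefSeq promoter windows of 300 bases (GRCm38.p6, 250 bases before the annotated start to 50 after it) were at hand for 7 of the 10 genes and were missing for Cox6a2, Cox4i1 and Cox4i2. The windows of the Cox8 and Cox7a pairs are shown because the Cox8 pair had the largest difference in ratio between E16.5 and P5 and the Cox7a pair the smallest. Each is printed 5′ to 3′ along the gene's own strand. Capitals mark the letters of a TATA box on the forward strand or, on either strand, of a CCAAT box, a CAGCTG E-box or an ETS site, as spelled out after the sequences.
Cox8b (chr7:140900397-140900696, minus strand): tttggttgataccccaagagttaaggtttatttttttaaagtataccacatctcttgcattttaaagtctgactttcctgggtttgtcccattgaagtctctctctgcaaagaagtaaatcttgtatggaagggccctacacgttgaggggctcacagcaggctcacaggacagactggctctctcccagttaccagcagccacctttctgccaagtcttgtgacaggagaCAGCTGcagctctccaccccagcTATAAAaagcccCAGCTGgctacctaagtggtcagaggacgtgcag
Cox8a (chr19:7217567-7217866, minus strand): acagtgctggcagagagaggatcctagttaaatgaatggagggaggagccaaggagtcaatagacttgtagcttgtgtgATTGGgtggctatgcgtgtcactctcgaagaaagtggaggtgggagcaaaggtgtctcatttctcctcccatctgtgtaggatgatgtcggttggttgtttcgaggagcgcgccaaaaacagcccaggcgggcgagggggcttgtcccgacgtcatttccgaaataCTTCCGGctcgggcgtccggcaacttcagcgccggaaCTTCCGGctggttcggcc
Cox7a1 (chr7:30183921-30184220, plus strand): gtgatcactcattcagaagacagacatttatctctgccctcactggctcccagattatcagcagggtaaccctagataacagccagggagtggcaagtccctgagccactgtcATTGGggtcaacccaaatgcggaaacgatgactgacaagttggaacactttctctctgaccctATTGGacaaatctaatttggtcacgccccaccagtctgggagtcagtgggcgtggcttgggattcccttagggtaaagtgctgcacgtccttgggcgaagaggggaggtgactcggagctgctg
Cox7a2 (chr9:79759804-79760103, minus strand): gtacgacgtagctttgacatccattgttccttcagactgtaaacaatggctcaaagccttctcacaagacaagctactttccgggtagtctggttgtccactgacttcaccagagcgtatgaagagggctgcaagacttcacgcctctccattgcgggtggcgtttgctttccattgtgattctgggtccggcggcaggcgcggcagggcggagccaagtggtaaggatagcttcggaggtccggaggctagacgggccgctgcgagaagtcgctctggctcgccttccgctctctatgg

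In both printed pairs the window of the muscle isoform held fewer CG dinucleotides than that of its common partner. Cox8b had 2 and Cox8a 19, and Cox7a1 had 7 and Cox7a2 20, against a median of 7 over 32851 windows. The translocator pair had the opposite order, with 25 CG dinucleotides for the muscle gene Slc25a4 and 18 for Slc25a5. Cox6a1 had 32.

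Cox8b was the single member of the 7 with TATAAA, a string present in 8.32% of all windows, and it held 2 copies of the E-box CAGCTG, present in 16.3%. The TATAAA began at 4 relative to the annotated start, on its downstream side, and the CAGCTG copies at −19 and 16. Only these exact letters were counted, so the related string TATAAG in the windows of Slc25a4 and Slc25a5 was not. Whether any of these strings acts in transcription was not tested. No window of the other 6 genes held CAGCTG. The ETS letters CCGGAAG (8.86% of windows) occurred in Cox6a1, Cox8a and Slc25a4, with 2 copies in Cox8a. CCAAT (37.4%) occurred in Cox6a1, Cox7a1, Cox8a and Slc25a4, with 2 copies each in Cox7a1 and Slc25a4. The NRF1 site (0.971%) and the YY1 letters ATGGCG (8.93%) were found in the window of Cox6a1. The general E-box CANNTG, which includes CAGCTG, was in 72.3% of windows and in each of the 7 apart from Cox6a1. The ERR letters TNAAGGTCA (1.28%), the MEF2 site (0.557%) and the CArG box (1.63%) were not among the letters of these 7 windows, all searched on both strands, as were the other motifs apart from the TATA box.

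After cells that lacked a UMI of at least 1 of Tnni3, Tnnt2, Tnnc1 and Actc1 were left out, the libraries held 3654 to 7340 CMs with 13070343 to 19665830 UMIs in all and a median of 1831 to 4658 UMIs per CM. A UMI (unique molecular identifier) marks 1 captured molecule at its 3′ end, so levels are given as UMIs per 1000000 UMIs of the CMs of a library (CPM) and were not divided by gene length. All 8 markers of CMs were present in each library at a summed 30479 to 37429 CPM. Tnni3, Tnnt2, Tnnc1 and Actc1 are among the 8 and carry most of that sum, and the filter fixed their presence in advance. The rest of the list measured 295 to 2924 CPM (Myh6), 166 to 3765 CPM (Myh7), 1016 to 1341 CPM (Ttn) and 156 to 405 CPM (Ryr2). Markers of fibroblasts (6 genes) summed to 126 to 886 CPM, highest in P1-4n and E16.5-4n CMs, and markers of red cells to 1648 to 10327 CPM, highest in E16.5-4n CMs. The skeletal muscle genes Myod1 and Myf5 had 0 UMIs, and of 4 brown fat genes Ucp1 and Elovl3 had at most 1 UMI per library. The other two were present: Prdm16 at 6.03 to 10.9 CPM, highest at E16.5, and Cidea, a lipid droplet gene, at 19.6 (2n) and 16.4 CPM (4n) at E16.5 and 74.6 and 71.1 CPM at P5, so that Cidea was higher with age as the muscle isoforms were; its part in their levels was not tested. Of 30652 distinct cell barcodes, 499 (1.63%) occurred in more than 1 library. In sums over cells such as these, fewer cells with a transcript and less of it per cell cannot be told apart. The share per cell is given further on, within the limits of counting error.

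Of the 10 members, 9 had at least 100 UMIs in the compared libraries and Cox4i2 did not. From E16.5 to P5, all 4 muscle isoforms had higher CPM in both ploidies, whereas of the 4 common isoforms Cox6a1, Cox8a and Slc25a5 had lower CPM and Cox7a2 higher. At least 2-fold higher were 2 of the 9 members in 2n CMs (Cox6a2 and Cox8b), where 3.03% of 9505 genes passed that fold, and 3 of 9 in 4n CMs (these 2 and Cox7a1), where 2.48% of 9600 genes did. Without cells that had cycling UMIs, Cox6a2 (log2 ratio 0.99) and Cox7a1 (0.95) lay under 2-fold in 4n CMs. None of the 9 was 2-fold lower, against 16.8% of genes in 2n and 21% in 4n CMs. The median gene had a log2 ratio of −0.45 in 2n and −0.51 in 4n CMs from E16.5 to P5, and −0.34 and −0.30 from E16.5 to P1, so a gene at 0 lay above most others. Scaled by the median of ratios in place of the total, Cox6a1 turned from −0.44 to 0.01 in 2n and from −0.40 to 0.13 in 4n CMs, and Cox8a from −0.50 to 0.02 in 4n CMs, while Slc25a5 and 2n Cox8a stayed below 0. On that scale 4 of the 9 members were at least 2-fold higher in each ploidy (Cox4i1, Cox6a2, Cox7a1 and Cox8b), where 7.09% of genes were in 2n and 7.41% in 4n CMs, and 5.57% and 6.74% of genes were 2-fold lower. The muscle to common ratio within a library does not depend on this scaling.

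**Figure D1:**
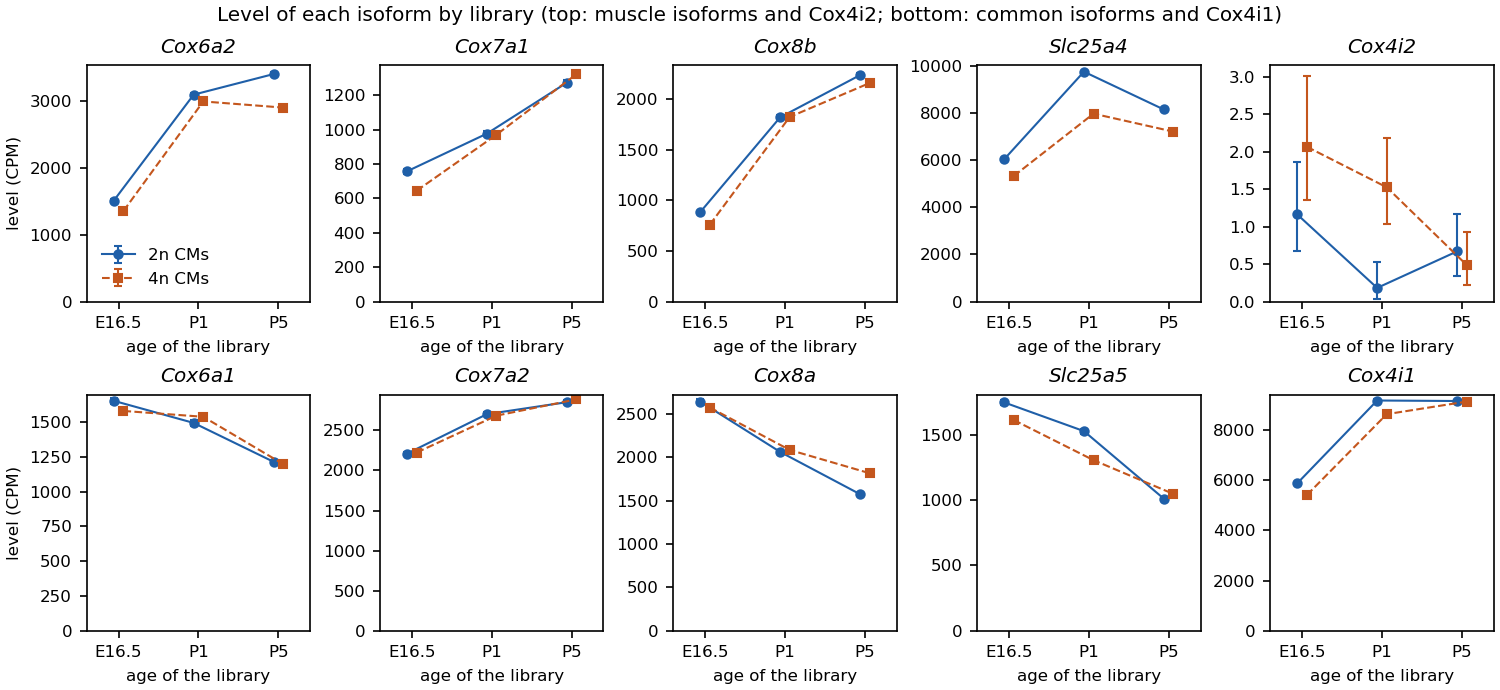
Level of each gene in CPM (y axis, from 0, with a scale of its own per panel) by age of the library (x axis), with circles for 2n and squares for 4n CMs and bars for the 95% Poisson interval, which covers counting error alone. Cox6a2, Cox7a1, Cox8b and Slc25a4 were higher at P5 than at E16.5, Cox6a1, Cox8a and Slc25a5 were lower on this scale, and Cox4i2 had at most 30 UMIs in a library.

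Cox8b, the heart and muscle form of a small membrane subunit, had the largest log2 ratio of the 9 members from E16.5 to P5. It measured 882 CPM (2n) and 758 CPM (4n) at E16.5, 1817 and 1821 CPM at P1, then 2234 and 2155 CPM at P5. The 2 P1 libraries had overlapping counting intervals, and both lay between the E16.5 and the P5 libraries. The log2 ratio of P5 to E16.5 was 1.34 (1.31 to 1.37) in 2n and 1.51 (1.48 to 1.54) in 4n CMs, above 98.1% and 98.7% of genes.

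Its common partner Cox8a took the opposite course on the CPM scale, at 2644 (2n) and 2576 CPM (4n) at E16.5, 2064 and 2086 CPM at P1, then 1576 and 1818 CPM at P5. Cox8b was therefore the minor isoform before birth and the major one at P5. Its share of the pair's UMIs was 25.03% (24.65 to 25.40, 2n) and 22.7% (4n) at E16.5, 46.8% and 46.6% at P1, then 58.6% and 54.2% (53.9 to 54.6) at P5. The ratio of Cox8b to Cox8a differed between P5 and E16.5 by 2.09 on the log2 scale (2.05 to 2.12) in 2n and by 2.01 (1.97 to 2.05) in 4n CMs, a fold of 4.25 and 4.03. Of this, 1.40 in 2n and 1.57 in 4n CMs lay between E16.5 and P1.

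Cox6a2, the muscle form of a subunit through which adenine nucleotides act on the oxidase, was the other member past 2-fold in both ploidies. Its level was 1509 CPM (2n) and 1352 CPM (4n) at E16.5, 3091 and 2990 CPM at P1, then 3398 and 2898 CPM at P5. Most of the difference lay between E16.5 and P1, at a log2 ratio of 1.03 (1.01 to 1.06) in 2n and 1.14 (1.12 to 1.17) in 4n CMs. Between E16.5 and P1, 2 of the 9 members (Cox6a2 and Cox8b) were at least 2-fold higher in each ploidy, where 1.98% of genes were in 2n and 2.88% in 4n CMs. Between P1 and P5 none of the 9 passed 2-fold in either direction, where 3.02% of genes were higher and 1.98% lower in 2n, and 2.4% higher and 5.85% lower in 4n CMs.

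Cox6a1, the common form, measured 1652 (2n) and 1580 CPM (4n) at E16.5, 1494 and 1538 CPM at P1, then 1214 and 1198 CPM at P5. The pair started near parity: Cox6a2 made up 47.7% of its UMIs in 2n and 46.1% in 4n CMs at E16.5, both below 50%. Its share was 67.4% and 66.0% in the P1 libraries, then 73.7% and 70.7% at P5. The log2 ratio of Cox6a2 to Cox6a1 differed between P5 and E16.5 by 1.62 (1.58 to 1.65) in 2n and 1.499 (1.462 to 1.535) in 4n CMs.

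The Cox7a pair differed least with age, and the common form stayed the major one. Cox7a1 measured 758 CPM (2n) and 645 CPM (4n) at E16.5, 977 and 971 CPM at P1, then 1274 and 1323 CPM at P5. Cox7a2 measured 2210 and 2223, 2702 and 2683, and 2851 and 2886 CPM at these ages, so that both genes of this pair were higher after birth. COX7A proteins sit at the edge of complex IV, where they take part in its assembly into dimers and supercomplexes.

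The share of Cox7a1 in its pair was 25.5% (2n) and 22.5% (4n) at E16.5, 26.6% in both P1 libraries, and 30.9% and 31.4% at P5. From E16.5 to P5 the log2 ratio of Cox7a1 to Cox7a2 differed by 0.38 (0.34 to 0.42) in 2n and 0.66 (0.62 to 0.70) in 4n CMs. In 2n CMs 0.08 of this (0.04 to 0.12) lay between E16.5 and P1 and 0.30 (0.27 to 0.34) between P1 and P5. The Cox7a pair thus had its larger 2n difference after P1, where the other 3 pairs had theirs before P1. In 4n CMs its 2 steps were about even, at 0.32 (0.28 to 0.36) before P1 and 0.34 (0.31 to 0.37) after it.

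**Figure D2:**
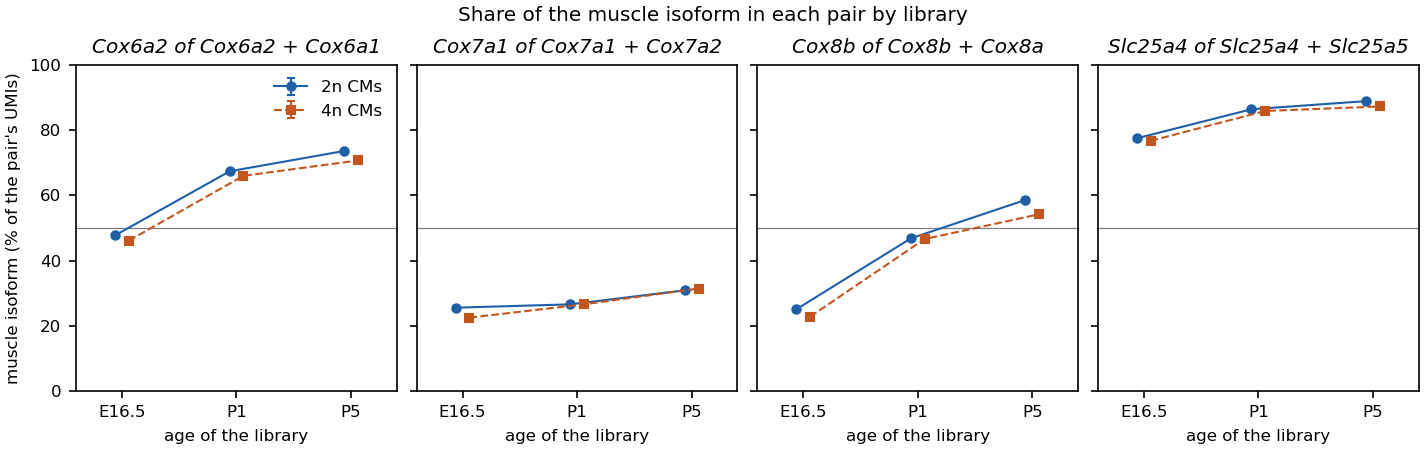
Share of the muscle isoform in the UMIs of its pair, in percent (y axis, 0 to 100), by age of the library (x axis), with circles for 2n and squares for 4n CMs, 95% exact binomial bars for counting error and a grey line at 50%. Cox6a2 and Cox8b crossed the line between E16.5 and P5, Cox7a1 stayed below it at 22.5 to 31.4%, and Slc25a4 lay above it in all 6 libraries.

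Slc25a4, the muscle translocator ANT1, was already the major isoform before birth. It measured 6037 CPM (2n) and 5327 CPM (4n) at E16.5, 9760 and 7978 CPM at P1, then 8156 and 7216 CPM at P5, which ranked it between 9 and 15 among all genes of a library. Its CPM was highest at P1 and lower at P5 in both ploidies, with a log2 ratio of P5 to P1 of −0.26 in 2n and −0.14 in 4n CMs. Relative to the median gene these were −0.16 and 0.01, so the lower P5 level in 4n CMs depends on the total used for scaling. The common translocator Slc25a5 measured 1746 and 1611, 1526 and 1304, and 1009.9 and 1046 CPM at these ages.

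Because Slc25a5 was lower in CPM by more than Slc25a4 from P1 to P5, the share of Slc25a4 was still higher at P5. It was 77.6% (2n) and 76.8% (4n) at E16.5, 86.5% and 86.0% at P1, then 89.0% and 87.3% at P5. The log2 ratio of Slc25a4 to Slc25a5 differed between P5 and E16.5 by 1.22 (1.19 to 1.25) in 2n and 1.06 (1.03 to 1.09) in 4n CMs. Slc25a5 had the lowest log2 ratio of the 9 members from E16.5 to P5, at −0.79 in 2n and −0.62 in 4n CMs.

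Cox4i1 encodes the common form of COX4, the largest nuclear-encoded subunit, and Cox4i2 a form known from lung and from cells at low oxygen. Cox4i1 was abundant throughout, at 5876 CPM (2n) and 5409 CPM (4n) at E16.5, 9173 and 8629 CPM at P1, then 9153 and 9130.01 CPM at P5. The counting intervals of both P5 libraries and the P1 library of 2n CMs overlapped, and the log2 ratio of P1 to E16.5 was 0.64 in 2n and 0.67 in 4n CMs. No muscle partner stands opposite it, and it was higher after birth as the muscle isoforms were.

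Cox4i2 had 17 UMIs (2n) and 27 UMIs (4n) at E16.5, 3 and 30 at P1, then 12 and 9 at P5, or 0.182 to 2.07 CPM. At P1 the 4n level was higher than the 2n level by 3.06 on the log2 scale (1.38 to 5.42), a ratio that rests on the 3 UMIs of the 2n library. At most 0.0382% of the UMIs of the pair came from Cox4i2, in E16.5-4n CMs. From E16.5 to P5 the log2 ratio was −0.80 (−1.99 to 0.36) in 2n and −2.08 (−3.35 to −0.95) in 4n CMs.

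The few Cox4i2 UMIs moved with markers of other cell types, counted over 26 genes of fibroblasts, endothelial cells, macrophages, mural cells and epicardium. CMs with 5 or more UMIs of these markers had 5.57 CPM of Cox4i2 in the E16.5 and 3.40 CPM in the P1 library of 4n CMs, whereas CMs with 0 had 0.892 and 0.294 CPM. In P1-4n CMs 24 of the 30 UMIs fell in the 26.5% of cells of the first kind. The part of such cells, of doublets or of free RNA in the Cox4i2 signal was not tested.

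The muscle shares of the other pairs moved less with these markers, though not in every library within counting error. In P5-2n CMs the share in cells with 5 or more marker UMIs was lower than in cells with 0 for Cox8b (55.4%, 53.9 to 57.0, against 58.9%, 58.4 to 59.4), Cox6a2 (71.3% against 73.7%) and Cox7a1 (28.6% against 30.9%), with intervals that did not overlap. The cells with 5 or more were 206 of the 4413 P5-2n CMs, and what part they have in the shares was measured by this split alone. In E16.5-4n CMs, Cox8b made up 23.0% of its pair in cells with 0 of these UMIs and 21.8% in cells with 5 or more. In P1-4n CMs, where such cells were most frequent, the corresponding shares were 47.2% and 45.3% for Cox8b, 66.0% and 65.6% for Cox6a2, 26.7% and 26.5% for Cox7a1, and 86.1% and 85.9% for Slc25a4. There too the Cox8b intervals did not overlap (46.7 to 47.8 and 44.7 to 45.9), whereas those of the other pairs did.

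Summed over the 4 pairs, muscle isoforms made up 52.7% (2n) and 50.3% (4n) of the UMIs at E16.5, 66.8% and 64.4% at P1, then 69.4% and 66.2% at P5. The sum of the 3 complex IV pairs, muscle and common together, was 9655 (2n) and 9134 CPM (4n) at E16.5, 12145 and 12089.5 CPM at P1, then 12547 and 12278 CPM at P5. The muscle forms within it went from 3149 to 6906 CPM in 2n CMs between E16.5 and P5, and the common forms from 6506 to 5641 CPM.

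The difference was visible in single cells as a shift of the share per cell. In cells thinned to 1000 UMIs each, with at least 10 UMIs of the 8 paired genes, the median muscle share per cell was 52.4% (2n) and 50% (4n) at E16.5, 66.7% and 64.5% at P1, then 69.0% and 66.7% at P5. Without thinning the medians were 52.6 and 50%, 66.7 and 64.3%, and 69.1 and 65.9%. The central 50% of thinned E16.5-2n CMs spanned 43.8 to 61.1% and that of P5-2n CMs 60.9 to 76.5%. Of 5699 (2n) and 4880 (4n) CMs at E16.5, 7340 and 4747 at P1, then 4413 and 3654 at P5, the depth of 1000 UMIs was reached by 5536 and 4857, 6640 and 4747, and 4393 and 3654.

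At a median of 16 to 23 paired UMIs per thinned cell, counting error alone spreads the share of a cell widely. Free RNA can also add UMIs of either isoform to a cell, and neither was subtracted. Separate groups of cells could merge at such counts, so the number of groups cannot be read from the shape. In thinned cells, Cox8b outnumbered Cox8a in 10.4% of E16.5-2n, 35.5% of P1-2n and 51.7% of P5-2n CMs, and in 9.41%, 36.4% and 45.6% of the 4n CMs at these ages. Cox8a outnumbered Cox8b in 74.7%, 44.4% and 28.8% of the 2n CMs and in 76.3%, 44.4% and 33.3% of the 4n CMs. The remaining 14.3 to 21.1% of cells of a library held equal counts of both. In 2n CMs, Cox7a1 outnumbered Cox7a2 in 11.1% of cells at E16.5 and in 13.7% at P5, and Cox7a2 outnumbered Cox7a1 in 71.1% and 70.4%. Slc25a4 outnumbered Slc25a5 in 89.0 to 98.9% of cells of each library.

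**Figure D3:**
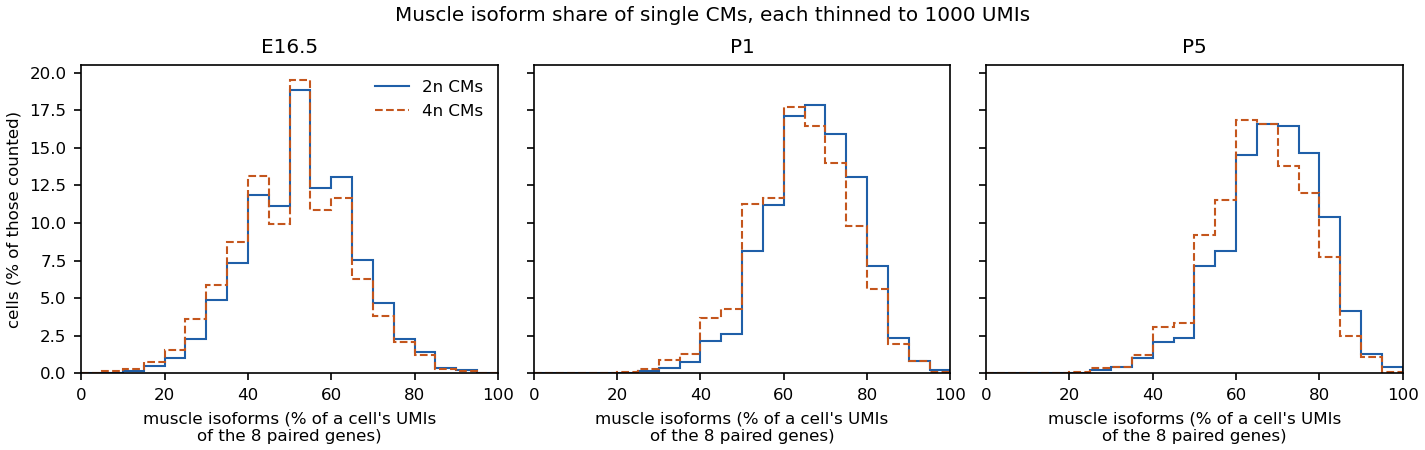
Cells in percent of those counted (y axis) by the muscle isoforms' share of the cell's UMIs of the 8 paired genes, in bins of 5 percentage points (x axis), for CMs thinned to 1000 UMIs at each age, with 2n as solid and 4n as dashed lines. The share spread broadly in each library, in part by counting error, which could merge separate groups of cells. Medians went from 50% (E16.5-4n) to 69.0% (P5-2n).

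The ratios of 4n and 2n CMs of an age lay closer together than those of E16.5 and P5 in all 4 pairs. In the Cox7a pair the 2 were nearer in size, with a ploidy difference of −0.24 at E16.5. Its differences from E16.5 to P5 were 0.38 in 2n and 0.66 in 4n CMs, and that from E16.5 to P1 was 0.08 in 2n CMs. None of the 9 members with enough UMIs passed 2-fold between 4n and 2n CMs, where 4.64% of genes were higher and 0.0208% lower at E16.5, 5.23% higher and 0% lower at P1, and 1.87% higher and 0.406% lower at P5. The muscle share summed over the 4 pairs differed between 4n and 2n CMs by −2.39 percentage points at E16.5, −2.39 at P1 and −3.19 at P5. Without cells that had cycling UMIs the E16.5 difference was −0.785 points, and those at P1 and P5 were −1.95 and −2.84. The libraries also differed in other cell type signal. CMs with 0 UMIs of the 26 markers were 83.0% of 2n and 57.8% of 4n CMs at E16.5, 84.0% and 42.3% at P1, then 65.2% and 55.9% at P5. These percentages also depend on depth, with a median per CM of 1831 (2n) and 3187 UMIs (4n) at P1. As a level, fibroblast markers summed to 126 (2n) and 750 CPM (4n) at E16.5, 131 and 886 CPM at P1, then 243 and 334 CPM at P5. Leaving out the CMs with UMIs of the 26 markers was 1 of 6 alternatives, under which each summed difference kept its sign. The part of doublets in these differences was not tested. At P1 the intervals of the ploidy difference in ratio included 0 for the Cox7a and Cox8 pairs, and Cox6a (−0.09) and Slc25a (−0.06) were lower in 4n CMs. The level of Slc25a4, which carries the most UMIs of the sum, was also lower in P1 4n CMs (log2 ratio −0.29). The summed share depends on how many UMIs each pair holds as well as on the ratios. Within the pairs, the P1 shares in 2n and 4n CMs were 67.4% and 66.0% for Cox6a2 and 26.6% in both for Cox7a1. They were 46.8% and 46.6% for Cox8b and 86.5% and 86.0% for Slc25a4. Each of these differed by less than the summed share did.

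At P5 the log2 ratios within the pairs were lower in 4n than in 2n CMs by 0.21 (0.18 to 0.24) for Cox6a, 0.26 (0.23 to 0.29) for Cox8 and 0.23 (0.20 to 0.26) for Slc25a. For Cox7a the 4n value was higher by 0.04 (0.01 to 0.07). At E16.5 the 4n ratio was lower in all 4 pairs, by 0.09 for Cox6a, 0.24 for Cox7a, 0.18 for Cox8 and 0.06 for Slc25a.

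Cells that expressed genes of division moved with these ratios. Over 12 cycling markers such as Mki67 and Top2a, 17.4% of 2n and 52.0% of 4n CMs had at least 3 UMIs at E16.5, 2.14% and 10.6% at P1, then 10.6% and 40.1% at P5. The cut was the same at all depths. Since the median per CM ran from 1831 (P1-2n) to 4658 UMIs (P5-4n), these percentages also depend on depth. In E16.5-4n CMs, cells with at least 3 cycling UMIs had a Cox8b share of 20.8% and cells with 0 had 25.9%. The Slc25a4 share was 75.4% against 78.7%. The Cox6a2 and Cox7a1 shares were 43.7% against 49.1% and 20.9% against 24.99%.

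Cells with cycling UMIs were also deeper, with a median of 2518 against 1746.5 UMIs in E16.5-4n CMs, so the comparison was repeated, after the data were seen, among cells of at least 2000 and under 4000 UMIs. Over cells of all depths the log2 difference between the classes was below 0 for each pair and library apart from Cox7a in P1-4n CMs (0.01, −0.06 to 0.08), which was −0.18 in the window, and Cox6a in P5-4n CMs was −0.03 (−0.09 to 0.02). At P1 several sizes were more than 1.5 times larger in the window, from −0.15 to −0.34 for Cox6a, −0.19 to −0.35 for Cox8 and −0.23 to −0.43 for Slc25a in 2n CMs, and from −0.22 to −0.50 for Cox6a and −0.32 to −0.54 for Slc25a in 4n CMs. The window held 66 (2n) and 152 (4n) P1 cells with 3 or more cycling UMIs. Its 2n intervals for Cox6a (−0.56 to −0.12) and Cox8 (−0.58 to −0.13) included the values over all depths. Those for Slc25a in 2n (−0.60 to −0.25) and for Cox6a and Slc25a in 4n CMs did not. Within the window the log2 ratio of Cox8b to Cox8a in cells with 3 or more cycling UMIs was lower than in cells with 0 in all 6 libraries, by 0.32 (2n) and 0.43 (4n) at E16.5, 0.35 and 0.27 at P1, then 0.21 and 0.23 at P5. For Slc25a4 to Slc25a5 it was lower by 0.17 to 0.54, with an interval that included 0 in P5-2n CMs. For Cox7a1 to Cox7a2 the intervals included 0 in both P5 libraries and in 2n CMs at P1. For Cox6a2 to Cox6a1 the interval included 0 in P5-2n CMs (−0.13), and the P5-4n value was 0.07 (−0.05 to 0.19), the only one of the 24 values in the window above 0. Cells of a library are not replicates, so these intervals again cover counting error alone.

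**Figure D4:**
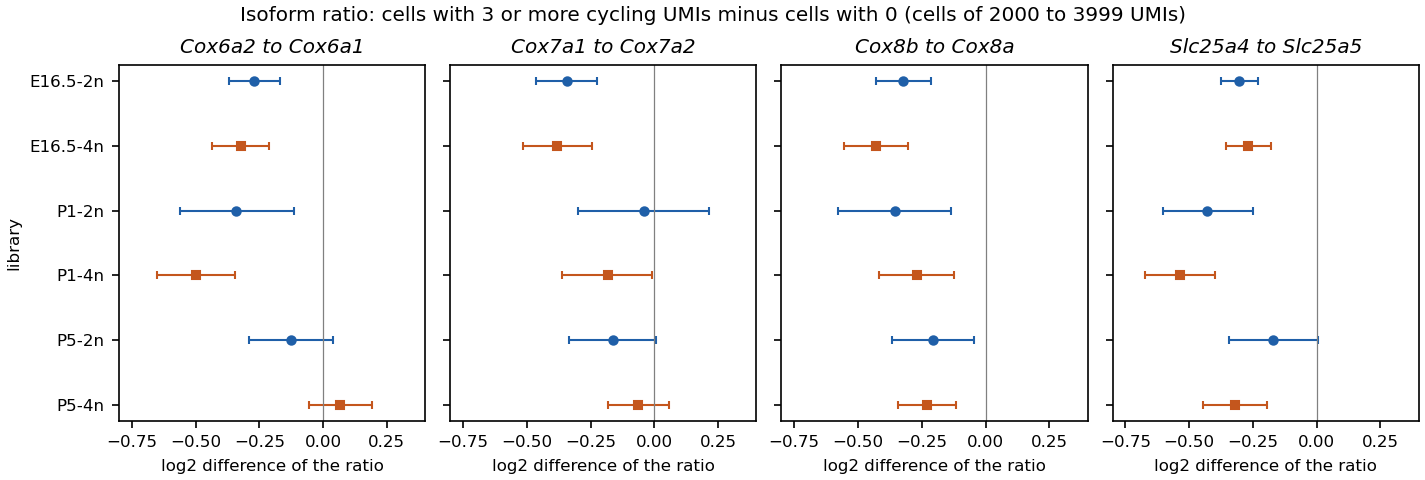
Log2 difference of the isoform ratio between CMs with 3 or more and CMs with 0 cycling UMIs (x axis) in each library (y axis), among cells of at least 2000 and under 4000 UMIs, with 95% counting intervals, circles for 2n and squares for 4n CMs and a grey line at 0. All values apart from that of Cox6a2 to Cox6a1 in P5-4n CMs lay below 0.

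Among cells with 0 cycling UMIs, the E16.5 ratios of 4n and 2n CMs had intervals of their difference that included 0 for Cox6a (−0.01), Cox8 (−0.02) and Slc25a (0.01), and the Cox7a ratio remained lower in 4n CMs by 0.13 (0.04 to 0.22). At P5 the 4n ratios were still lower in such cells, by 0.20 for Cox6a, 0.21 for Cox8 and 0.12 for Slc25a. Cells with 3 or more cycling UMIs had, at E16.5, a 4n minus 2n difference of −0.16 (−0.24 to −0.07) for Cox7a and −0.15 (−0.23 to −0.07) for Cox8. The intervals of Cox6a (−0.07) and Slc25a (−0.02) included 0 there. At P5 these cells had −0.11 for Cox6a, −0.23 for Cox8, −0.23 for Slc25a and 0.11 for Cox7a. The part of cycling cells in the pooled gap between ploidies was measured by these splits alone and was not otherwise tested.

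Beside the sarcomere, whose isoforms also switch around birth, the respiratory pairs moved by less than the myosins. The log2 ratio of Myh6 to Myh7, the adult and fetal ventricular myosin heavy chains of the mouse, differed between E16.5 and P5 by 7.19 in 2n and 7.64 in 4n CMs. That of Tnni3 to Tnni1, the cardiac and the slow skeletal troponin I, differed by 2.01 and 2.06, close to the 2.09 and 2.01 of Cox8b to Cox8a. Tnni3 was also among the genes that selected the CMs. At P5 the Myh6 to Myh7 ratio was higher in 4n than in 2n CMs by 0.36 and the Tnni3 to Tnni1 ratio by 0.10, the opposite direction to the Cox6a, Cox8 and Slc25a pairs.

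**Figure D5:**
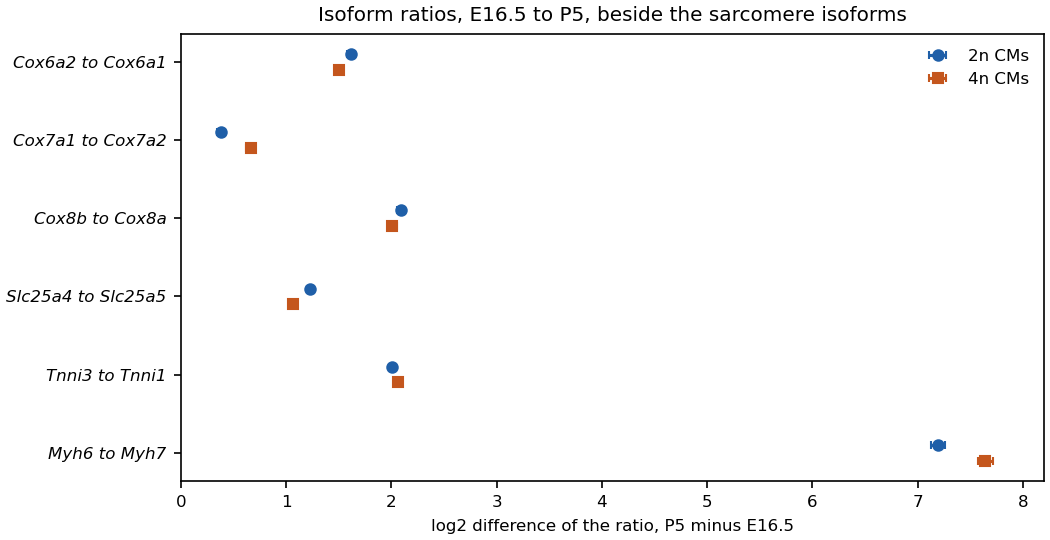
Log2 difference of the isoform ratio between P5 and E16.5 (x axis, from 0) for the 4 respiratory pairs and 2 sarcomere pairs (y axis), with circles for 2n and squares for 4n CMs and 95% counting intervals. The respiratory pairs lay between 0.38 and 2.09, the troponin pair at 2.01 and 2.06 and the myosin pair at 7.19 and 7.64.

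The other listed nuclear subunits of complex IV, taken here without an isoform partner, were all higher at P5. Cox6b1 has a second form, Cox6b2, whose lower level is given below. From E16.5 to P5, 7 of 7 (Cox5a, Cox5b, Cox6b1, Cox6c, Cox7b, Cox7c and Ndufa4) were higher in both ploidies and none by 2-fold, with a median log2 ratio of 0.62 in 2n and 0.63 in 4n CMs beside −0.45 and −0.51 over all genes. Over all genes, 3.03% in 2n and 2.48% in 4n CMs were at least 2-fold higher. Ndufa4 was highest among the 7 subunits in 2n CMs at 0.89, and Cox7b lowest in both ploidies at 0.31 and 0.27. The sum of the 7 in 2n CMs was 23848 CPM at E16.5 and 37389 CPM at P5. The muscle isoforms Cox6a2 and Cox8b lay above each of these 7 subunits, Cox7a1 lay below Cox5a (0.82) and Ndufa4 in 2n CMs at 0.75 and above all 7 in 4n CMs at 1.04, Cox7a2 lay above Cox7b alone, and Cox6a1 and Cox8a lay below all 7.

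The 3 subunits of the catalytic core, made in the mitochondrion, were higher as well. Of these, mt-Co1 and mt-Co3 passed 2-fold in both ploidies from E16.5 to P5, where 3.03% (2n) and 2.48% (4n) of all genes did. The log2 ratio of mt-Co1 was 1.61 in 2n and 1.74 in 4n CMs, that of mt-Co2 0.95 in both, and that of mt-Co3 1.16 and 1.29. The summed level of the 3 genes in 2n CMs was 38007 CPM at E16.5 and 90272 CPM at P5.

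Among genes that work beside the translocators, Slc25a3, the phosphate carrier, had a log2 ratio of P5 to E16.5 of 0.17 in 2n and 0.33 in 4n CMs. None of the 5 such genes (with Vdac1, Vdac2, Vdac3 and Ppif) passed 2-fold. Over all genes, 3.03% (2n) and 2.48% (4n) were higher and 16.8% and 21% lower, so 5 genes are too few to set against these shares. Vdac1, an outer membrane channel, was at −0.27 in 2n and 0.03 in 4n CMs.

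Among further paralogs, Cox7a2l, a relative of the Cox7a genes, was at −0.32 in 2n and −0.25 in 4n CMs. Cox6b2, known as a testis form, measured 23.5 CPM in 2n and 50.7 CPM in 4n CMs at P5, a log2 ratio of 1.11 (0.94 to 1.28), and in 4n CMs it was 2-fold higher at P5 than at E16.5, at 1.19. Cox7b2, Cox8c and the testis translocator Slc25a31 had under 100 UMIs in each comparison of ages, and Cox8c had 0 UMIs in all 6 libraries, where 3 UMIs equal 0.153 to 0.230 CPM.

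Of 15 regulators and interactors of respiratory genes, 14 passed the minimum of UMIs from E16.5 to P5 and none of these was past 2-fold in either direction in either ploidy, where 3.03% (2n) and 2.48% (4n) of all genes were higher and 16.8% and 21% lower. Their median log2 ratio was −0.16 in 2n and −0.27 in 4n CMs. Esrrb, which fell short of the minimum, was more than 2-fold higher at P5 for both ploidies. The 2n libraries gave it a log2 ratio of 1.32 (0.57 to 2.12), from 20 UMIs at E16.5 and 61 at P5. The 4n libraries, with 13 and 55 UMIs, gave 1.59 (0.70 to 2.58). Lowest of the 14 were Nrf1 (2n −0.99, 4n −0.94), Mef2c (2n −0.85, 4n −0.82) and Gabpa (2n −0.66, 4n −0.64). Ppargc1a, a coactivator of mitochondrial genes, measured −0.48 and −0.34, Esrrg, an estrogen-related receptor, −0.64 and −0.62, and Tfam, a factor of mitochondrial DNA, −0.08 and −0.34. Ppargc1b, a relative of Ppargc1a, measured 0.41 and 0.25, and Esrra, a relative of Esrrg, 0.06 and 0.47. Relative to the median gene, Ppargc1a was at −0.03 and 0.17, Tfam at 0.37 and 0.17 and Esrrg at −0.19 and −0.11, so the negative values of Tfam in both ploidies and of Ppargc1a in 4n CMs turn with the scaling. Chchd2, which binds complex IV and acts on the oxygen response of Cox4i2, measured 0.34 and 0.29, and Higd1a, an interactor of complex IV, 0.48 and 0.43.

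The 3 genes nearest in pattern to a member over the 6 libraries, by the root mean square difference of centred log2(CPM + 1), were of mixed kinds. For Slc25a4 the nearest were Acadl, an enzyme of fatty acid oxidation (0.04), 6330403L08Rik (0.06) and Ptgds, a prostaglandin D synthase (0.07), and for Cox4i1 they were Ptp4a3 (0.03), Ndufb11, a subunit of complex I (0.03), and Tmem160 (0.04). For Cox8b the nearest 3 were Rai2 (0.08), mt-Co3 (0.09) and Ttc27 (0.09), and for Cox6a2 they were Zfp672 (0.06), Pcp4l1 (0.06) and Crat, the carnitine acetyltransferase (0.09). For Cox7a1 they were Tlr4, Inpp5a and Htra1 (0.05 each), and for Slc25a5 Amn1, Mettl5 and Mat2b (0.03 each). Rai2 and Tlr4 lay under 4 CPM in each library, and 6 libraries of 3 ages give this measure little to separate genes by.

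Few other genes shared sequence or position with the members. The last 200 bases of the longest coding transcript had matches of at least 160 bases at 90% identity or more in other annotated genes only for Cox6a1, with 1 gene, and for Slc25a5, with the pseudogene Slc25a5-ps, and neither was in the count tables, so how their reads were assigned is uncertain. The 2 genes of a muscle to common pair shared no such match. Cox6a2 lies wholly within the span of Itgad on the opposite strand, which had 5 UMIs over all 6 libraries. Cox4i1 overlaps Gm20388 on its own strand over 5986 bases, the whole span of Cox4i1. Gm20388 had 0 UMIs, and how reads that fit both genes were assigned is uncertain. Cox4i1 also overlaps 352 bases of Emc8 on the other strand.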

How the data were processed

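Left ventricular CMs were fixed, sorted by DNA content and taken through the 10x Genomics Single Cell 3′ protocol (v2), 1 library for each of 3 ages and 2 ploidies, each from 3 pooled sorts of several litters. The authors processed the reads with Cell Ranger and STAR on mm10 (GRCm38) and deposited a table of unnormalized UMI counts, genes by called cells, for each library; the submitters' processing notes also name Seurat 2.3.0, and the Cell Ranger version is not given in the sources used here. Other deposited text files, not used here, hold a list of background gene symbols and the authors' own comparison of G2/M cells. Deeper sequencing of some libraries was not analysed here.

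CMs were kept at 1 or more UMIs of each of Tnni3, Tnnt2, Tnnc1 and Actc1. Doublets were not called. UMIs were summed over CMs and divided by all their UMIs (CPM). Levels have exact Poisson intervals, shares exact binomial (Clopper-Pearson) intervals, ratios of CPM the exact binomial interval of the split of UMIs, and differences of a pair's ratio the exact conditional odds ratio interval, all at 95%; they cover counting error only. A gene counted as called at a fold of 2 or more among genes with at least 100 UMIs in the 2 libraries compared. At these depths 3 UMIs equal 0.153 to 0.230 CPM. With 1 library per condition no test was made. Cells were thinned to 1000 UMIs with a fixed seed. The interval code was tested on simulated counts. Positions came from the GENCODE M21 annotation, promoters from RefSeq, and similar transcript ends from blastn 2.17.0. Python 3.11.15, numpy 2.4.6, scipy 1.17.1, pandas 2.3.3 and matplotlib 3.10.9 were used.

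The members, lists, pairs and alternatives were chosen with earlier results of these data known. Named genes were the 10 members, the listed pathway genes and the 3 genes nearest in pattern to each of 6 members (pseudocount 1). Genes that overlap the members were named after their values were seen. Alternatives were other CM filters, cells with markers of other types or of cycling left out, thinning, means over cells, 3 scalings and other minimum counts; the window from 2000 to under 4000 UMIs was added after seeing the data.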

Additional observations from a re-analysis of the deposited data

Results flagged for a closer look

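Values of opposite direction between groups, each with counting intervals on its own side of 0, were found for 7 comparisons; with 1 library per condition none of these differences was tested. All are log2 ratios. Cox6a2 was higher at P5 than at P1 in 2n CMs (0.14) and lower in 4n CMs (−0.05). Cox6a1 was lower in 4n than in 2n CMs at E16.5 (−0.065) and higher at P1 (0.04). Slc25a5 was lower in 4n CMs at E16.5 (−0.12) and P1 (−0.23) and higher at P5 (0.05). Cox7a1 was lower in 4n CMs at E16.5 (−0.23) and higher at P5 (0.05), and its ratio to Cox7a2 followed, at −0.24 and 0.04. Cox8a was lower in 4n CMs at E16.5 (−0.038) and higher at P5 (0.21). Scaled by the median gene of each comparison, Cox6a2 in 4n CMs between P1 and P5 was at 0.11 and Cox6a1 at P1 at −0.01, so these 2 pairs of opposite directions depend on the total used for scaling, whereas the Cox7a ratio does not.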

How the results depend on the processing

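The 4 muscle to common ratios kept their direction from E16.5 to P5 in both ploidies under all 6 alternatives for cells and weights, and sizes moved by less than 1.5 times. With cells that had cycling UMIs left out, the log2 differences were 1.54 (2n) and 1.35 (4n) for Cox6a, 0.32 and 0.49 for Cox7a, 2.03 and 1.84 for Cox8 and 1.18 in 2n for Slc25a. Thinned to 1000 UMIs they were 1.55 and 1.44 for Cox6a and 1.02 in 4n for Slc25a. As means over cells they were 1.54 and 1.46 for Cox6a, 2.04 in 2n for Cox8 and 1.19 in 2n for Slc25a. Without cells with other cell type markers the 4n Slc25a value was 1.10. The 4n minus 2n muscle share in percentage points was −0.785 (E16.5), −1.95 (P1) and −2.84 (P5) without cycling cells, −1.98 (E16.5) and −2.71 (P5) thinned, and −2.88 (P5) as a mean over cells. The E16.5 ratio of Slc25a4 to Slc25a5 between 4n and 2n CMs turned from −0.065 to 0.011 without cycling cells. The number of members at least 2-fold higher by the median of ratios was 4 in 2n CMs, against 2, with Cox4i1 (1.09) and Cox7a1 (1.20) added, and 4 in 4n CMs, against 3, with Cox4i1 (1.28) added; the share of all genes was then 7.09% (2n) and 7.41% (4n), against 3.03% and 2.48%. In 4n CMs without cycling cells Cox6a2 (0.99) and Cox7a1 (0.95) lay just under 2-fold. With a minimum of 20 or of 1 UMIs the number 2-fold lower in 4n CMs was 1, Cox4i2, since it then counts among the genes. That call rests on 27 UMIs at E16.5 and 9 at P5. The share of all genes at these minimums was not computed, so the count has nothing to be set against. Of the other values by gene, pair and ploidy, 149 stayed within their counting interval, 125 moved beyond it and the Slc25a ratio above turned; the cause was not tested. The sign changed in 12 of 341 values under an alternative: 8 where the reported interval includes 0 (the P1 ploidy ratios of Cox7a, to −0.061 when thinned, and Cox8, to 0.027 without cycling cells, and 2 values of the depth window) and 4 where it does not (the Slc25a ratio above, Cox6a1 in both ploidies and Cox8a in 4n CMs). No paired analysis was possible because each condition has 1 library and so the conditions share a single replicate number; the 4n and 2n libraries of an age were compared as values, and no fit over the 3 ages was made. Cox4i2 is the member whose depth limits its values.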
